A study of Mus musculus with 7 samples.

Results

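Major histocompatibility complex (MHC) class II antigen presentation was examined through 7 genes in LSK cells, which are sorted from mouse marrow as Lin-, Sca1+ and Kit+ and comprise stem cells together with multipotent progenitors. The genes were taken by symbol from the deposited counts, which list 24421 gene symbols, and all 7 were found there: H2-Aa, H2-Ab1 and H2-Eb1 (chains of the class II molecules), Cd74 (the invariant chain), H2-DMa and H2-DMb1 (the peptide-loading dimer) and Ciita (the class II transactivator). All 7 also passed the filter on low counts, which left 13340 genes. RNA-seq libraries from 7 mice were compared: replicates 1 to 4 were Ddx41+/+ and replicates 6 to 8 were Ddx41+/-.

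Lethally irradiated BoyJ recipients had received marrow mononuclear cells from Rosa-CreERT2 donors that carried either 1 floxed Ddx41 allele beside a normal one (Ddx41+/-) or normal alleles alone (Ddx41+/+). Recipients of both kinds were given 1 mg tamoxifen in corn oil on 5 successive days, in 2 rounds, so that the active recombinase and the drug were common to both genotypes. The sort took place 8 weeks after transplantation. CreERT2 is driven from the ubiquitous Rosa26 locus, so recombination is not limited to LSK cells. A gate on donor cells is not stated for this sort, and residual host cells may be present in either genotype. Neither age nor sex of the mice is given in the labels. The label of each library is a genotype and a number, with no batch named.

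Class II molecules are dimers of an alpha and a beta chain that carry peptides from the endosome to the cell surface for recognition by CD4+ T cells. The invariant chain occupies the groove of a new dimer until endosomal proteases trim it to a short fragment, and the DM dimer then exchanges that fragment for a peptide. Transcription of these genes depends on Ciita, a coactivator with no DNA-binding domain of its own that is recruited by RFX, CREB and NF-Y proteins bound to the X and Y boxes of class II promoters. In bone marrow the highest class II levels are known from B cells, dendritic cells and macrophages, and hematopoietic stem and progenitor cells have also been described to carry class II.

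Of the 7 genes, 5 lie in the class II region of chromosome 17. The sequences below show the part of each promoter that holds the letters searched for, from RefSeq (build GRCm38.p6), which had an entry for 4 of the 7 genes (H2-Aa, H2-Eb1, H2-DMa and H2-DMb1) and for the 3 other class II chains looked up, H2-DMb2, H2-Oa and H2-Ob. Capitals mark the Y box letters TGATTGG and the X box letters AACNNATGATG, read on both strands, and the stretches of H2-Aa, H2-Eb1 and H2-Ob end 5 bases after the Y box letters. The X box letters are the bases shared by the promoters of H2-Eb1, H2-DMb1, H2-DMb2 and H2-Ob, so that these 4 hold them by construction, and all letters were chosen after the sequences had been seen.
H2-Aa (minus strand, chr17:34287862-34287928): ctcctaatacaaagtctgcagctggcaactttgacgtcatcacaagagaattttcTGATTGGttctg
H2-Eb1 (plus strand, chr17:34305751-34305817): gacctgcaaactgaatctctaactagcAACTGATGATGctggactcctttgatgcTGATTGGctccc
H2-Ob (plus strand, chr17:34238791-34238857): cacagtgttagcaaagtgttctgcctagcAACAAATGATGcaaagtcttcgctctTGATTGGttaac
H2-DMb1, X box letters alone (plus strand, chr17:34153090-34153114): ttacctagtAACTGATGATGctagg

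The Y box letters began 50 bases before the start of H2-Aa, 61 bases before that of H2-Eb1 and 63 bases before that of H2-DMb1. Between the X and the Y box letters lay 17 bases in H2-Eb1, 18 in H2-DMb1 and 15 in H2-Ob. H2-Aa held the Y box letters without these X box letters, and neither was found in the 2 listed promoters of H2-DMa. The X box letters were taken only from promoters that hold ATGATG, so an X box of other letters would not be found. Over all 32851 promoters of the same length (300 bases), 7.82% held the Y box letters, 0.137% the X box letters and 0.0274% both. The promoters with both belonged to 7 genes: H2-DMb1, H2-DMb2, H2-Eb1, H2-Ob, Gm38969, Nubp2 and Spsb3. A match of letters is a description of these windows and not evidence of binding in LSK cells.

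Ddx41, the targeted gene, had 92.8, 98.7, 93.2 and 106.6 CPM (counts-per-million, scaled by the trimmed mean of M values, TMM) in Ddx41+/+ and 68.1, 64.4 and 69.5 CPM in Ddx41+/-. The genotypes did not overlap, and Ddx41 fell by 0.54 on the log2 scale (SE 0.071, edgeR quasi-likelihood test, Benjamini-Hochberg (BH) adjusted p = 0.0052). Total counts lay between 32234499 and 43751290 per sample and did not separate the genotypes (exact permutation p = 0.457, two-sided). Of the LSK marker genes, Kit, Cd34, Flt3 and the other 7 were all detected, with summed levels of 1700 to 1900 CPM in Ddx41+/+ and 1582 to 1730 CPM in Ddx41+/-. Kit, Cd34 and Flt3 had log2 fold changes of 0.0041, -0.16 and -0.34. The median of the list was -0.35 (-0.32 without replicate 7), and 9 of 10 were below 0 (51.2% of all genes tested). Of the 10, 0 passed the edgeR test (0.217% of all genes), with a smallest adjusted p of 0.062. At an unadjusted p under 0.05, 6 were lower in Ddx41+/- (4.93% of all genes), and 3 were lower without overlap (5.21%). Ddx41+/- replicate 7 stood apart for plasma cell genes, with 346.1 CPM of Jchain against 26.0 to 128.0 CPM in the other 6 samples, and the class II genes and the gene lists were therefore also read from the fit without it.

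The 7 genes spanned a wide range of expression in LSK cells. Compared per kilobase of the principal transcript, H2-DMa had 74.2 ± 2.89 CPM per kb (SD, n = 4) in Ddx41+/+ cells and Cd74 had 73.8 ± 10.1. H2-Ab1 followed with 57.3 ± 4.49 CPM per kb and H2-Aa with 46.6 ± 4.05, and H2-DMb1 and H2-Eb1 had 23.5 ± 1.56 and 19.1 ± 3.45. Ciita was the lowest at 0.971 ± 0.098 CPM per kb, 19.7-fold below H2-Eb1, the next in order.

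The order of H2-DMa and Cd74 was not settled, since H2-DMa was the higher in only 2 of 4 Ddx41+/+ samples. Cd74 exceeded H2-Ab1, H2-Ab1 exceeded H2-Aa and H2-DMb1 exceeded H2-Eb1 in each of the 7 samples, although the ranges of these neighbours over the Ddx41+/+ samples overlapped. The range of H2-Aa lay wholly above that of H2-DMb1 (1.98-fold between the means), and that of H2-Eb1 wholly above that of Ciita. Ddx41+/- means gave the same order of levels, from 71.2 CPM per kb for H2-DMa and 66.6 for Cd74 to 14.3 for H2-Eb1 and 0.734 for Ciita. This order rests on the transcript chosen for each gene: per kilobase of all annotated exons, Cd74 led with 62.0 CPM per kb in Ddx41+/+, followed by H2-DMa (35.7), H2-Ab1 (27.0), H2-DMb1 (19.6), H2-Eb1 (16.4), H2-Aa (13.8) and Ciita (0.611).

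To ask whether loss of 1 Ddx41 allele altered these transcripts, the genotypes were compared gene by gene in a fit over all 13340 genes. H2-Aa, the A alpha chain, was lower in all 3 Ddx41+/- samples than in any Ddx41+/+ sample. H2-Eb1 and H2-Ab1 were lower on average with overlapping samples, Ciita was low mainly in replicate 7, and Cd74 and the DM genes showed no separation of the genotypes. Of the 7 genes, 0 passed a BH-adjusted p of 0.05 in the edgeR test, against 0.217% of all genes tested (29 genes, of which 13, or 0.0975%, were lower and 16, or 0.120%, higher in Ddx41+/-). At an unadjusted p under 0.05, 3 of 7 (H2-Aa, H2-Ab1 and H2-Eb1) were lower in Ddx41+/-, against 4.93% of all genes, and 0 were higher, against 5.70%. The count of 3 became 1 without Ddx41+/+ replicate 4 and 2 without Ddx41+/- replicate 8. DESeq2 called 1 of the 7 genes, H2-Aa (adjusted p = 0.0291), where it called 1.28% of 12817 genes, and limma-voom called 0 where it called 0.292%.

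As a group, 6 of the 7 genes had a log2 fold change below 0, against 51.2% of all genes tested. Their median log2 fold change was -0.24, and that of all genes was -0.0048. The genotypes did not overlap for 2 of the 7, H2-Aa and Ciita, both lower in Ddx41+/- (5.21% of all genes), and 0 of 7 were higher without overlap (4.85%). Since whole LSK populations were measured, fewer class II-bearing cells and less class II RNA per cell cannot be told apart.

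**Figure D1:**
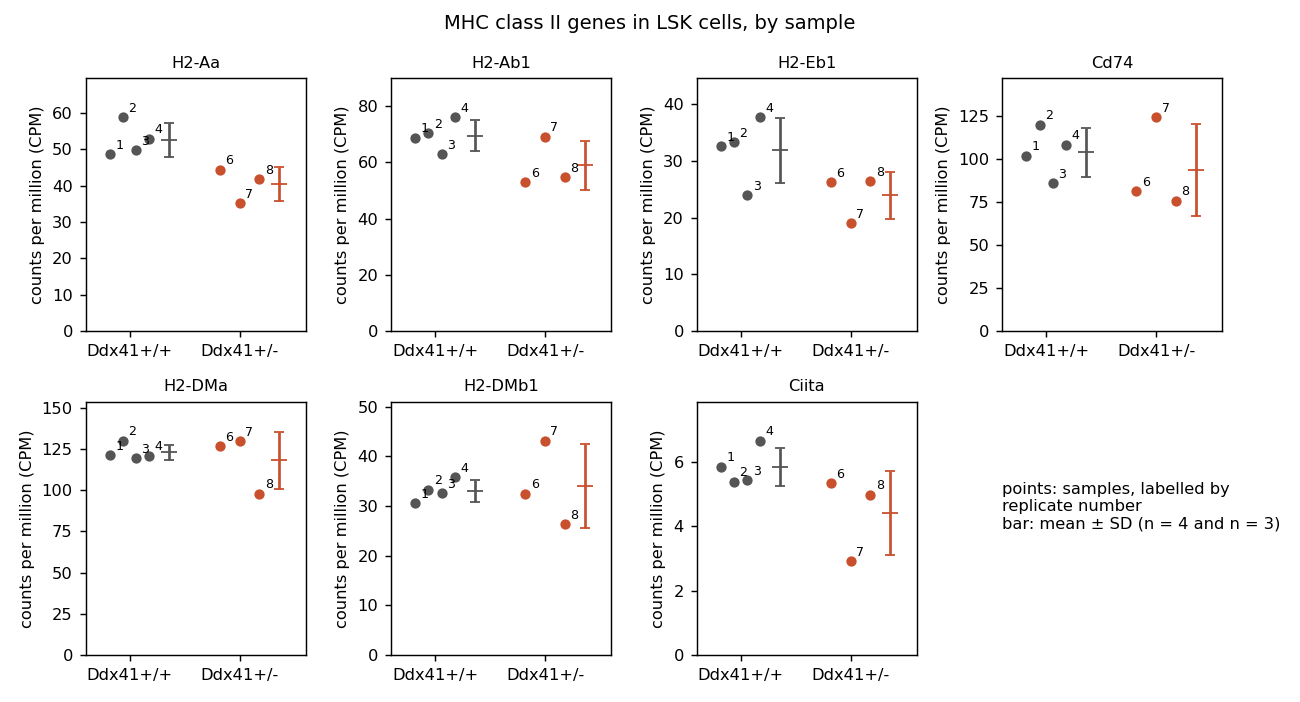
Expression of the 7 class II genes in CPM (linear axes from 0) in each LSK sample, with Ddx41+/+ samples in grey and Ddx41+/- samples in red, numbered by replicate; bars give the mean ± SD (n = 4 and n = 3). H2-Aa and Ciita show no overlap between genotypes, and Ddx41+/- replicate 7 is the lowest point for H2-Aa, H2-Eb1 and Ciita and the highest for Cd74 and H2-DMb1.

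H2-Aa lies on chromosome 17 (GRCm38, minus strand, 34282744 to 34287823) and encodes the alpha chain of the A molecule (I-A), the class II molecule of the b haplotype. Its levels were 48.6, 58.8, 49.7 and 52.9 CPM in Ddx41+/+ and 44.3, 35.2 and 41.7 CPM in Ddx41+/-. The highest Ddx41+/- sample, replicate 6, was below the lowest Ddx41+/+ sample, replicate 1. Mean levels with their SD were 52.5 ± 4.57 (n = 4) and 40.4 ± 4.70 CPM (n = 3), so that Ddx41+/- cells had 77.0% of the Ddx41+/+ level. The log2 fold change was -0.38 (SE 0.095, 95% interval -0.58 to -0.18), with an unadjusted p of 0.00111 and an adjusted p of 0.132 by edgeR. An exact two-sided permutation test of the means gave p = 0.0286, the smallest that 35 splits of 4 and 3 samples allow. Adjusted p ranged from 0.0291 to 0.455 over 14 alternative fits, past the threshold with DESeq2 and without the filter on low counts (adjusted p = 0.0486 by edgeR, with 0.544% of 16741 genes called). Without replicate 7, its lowest sample, the log2 fold change was -0.29 (adjusted p = 0.455 by edgeR).

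H2-Ab1 (chromosome 17, plus strand, 34257689 to 34269419) encodes the beta chain that pairs with the H2-Aa product. Its levels were 68.7, 70.3, 62.8 and 76.1 CPM in Ddx41+/+ and 53.0, 69.0 and 54.7 CPM in Ddx41+/-. Replicates 6 and 8 were below every Ddx41+/+ sample, and replicate 7 was within their range. Means were 69.5 ± 5.44 and 58.9 ± 8.80 CPM, or 84.8%, with a log2 fold change of -0.24 (SE 0.095, 95% interval -0.44 to -0.038) and an adjusted p of 0.380 by edgeR. The exact permutation test gave p = 0.171. The log2 fold change was -0.37 without replicate 7 (adjusted p = 0.178 by edgeR) and ran from -0.28 to -0.17 with any other sample left out.

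H2-Eb1 (chromosome 17, plus strand, 34305867 to 34316674) encodes the beta chain of the E molecule (I-E). Mice of the b haplotype, to which C57BL/6 strains belong, express no functional E alpha chain and so display no E molecule, although the H2-Eb1 transcript is made. Levels of H2-Eb1 were 32.6, 33.3, 23.9 and 37.7 CPM in Ddx41+/+ and 26.3, 19.1 and 26.4 CPM in Ddx41+/-. Replicate 3, the lowest of the Ddx41+/+ samples, was below replicates 6 and 8, so the genotypes overlapped. Means were 31.9 ± 5.77 and 23.9 ± 4.20 CPM, a ratio of 0.750, with a log2 fold change of -0.41 (SE 0.15, 95% interval -0.74 to -0.092) and an adjusted p of 0.340 by edgeR (exact permutation p = 0.114). Without replicate 7, its lowest sample, the log2 fold change was -0.28 (adjusted p = 0.736 by edgeR). H2-Ea-ps, the E alpha locus of these mice, had 0 counts in 6 samples and 2 counts in Ddx41+/- replicate 7, under a floor of 3 counts, and no fold was computed.

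Cd74 (chromosome 18, plus strand, 60803848 to 60812652) encodes the invariant chain, which chaperones new class II dimers to the endosome. Its levels were 102.1, 119.9, 85.9 and 108.4 CPM in Ddx41+/+ and 81.3, 124.5 and 75.8 CPM in Ddx41+/-. Replicates 6 and 8 were the lowest of all samples and replicate 7 the highest, so that the Ddx41+/- samples enclosed the Ddx41+/+ range. Means were 104.1 ± 14.2 and 93.9 ± 26.7 CPM, or 90.2%. The log2 fold change of -0.15 (SE 0.19) had a 95% interval from -0.60 to 0.30 and an adjusted p of 0.838 by edgeR (exact permutation p = 0.486). The value turned on single libraries: it was -0.41 without replicate 7 (adjusted p = 0.306 by edgeR), but -0.018 without replicate 8, -0.057 without replicate 6, -0.072 without Ddx41+/+ replicate 2 and -0.23 without Ddx41+/+ replicate 3.

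H2-DMa and H2-DMb1 encode the DM dimer, which catalyses the release of the invariant chain fragment. H2-DMa (chromosome 17, plus strand, 34119541 to 34139101) had 121.2, 130.1, 119.6 and 120.9 CPM in Ddx41+/+ and 126.6, 129.7 and 97.9 CPM in Ddx41+/-. Only replicate 8 was outside the Ddx41+/+ range, below it. Its mean in Ddx41+/- was 96.1% of that in Ddx41+/+, with a log2 fold change of -0.059 (SE 0.086, 95% interval -0.24 to 0.12, adjusted p = 0.862 by edgeR). H2-DMb1 (chromosome 17, plus strand, 34153072 to 34160230) had 30.5, 33.3, 32.5 and 35.8 CPM in Ddx41+/+ and 32.5, 43.1 and 26.3 CPM in Ddx41+/-. Replicate 7 was above and replicate 8 below the whole Ddx41+/+ range. The mean was 102.9% of Ddx41+/+, with a log2 fold change of 0.039 (SE 0.13, 95% interval -0.25 to 0.32, adjusted p = 0.948 by edgeR). Exact permutation p was 0.714 for H2-DMa and 0.800 for H2-DMb1.

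Ciita (chromosome 16, plus strand, 10480059 to 10528418) encodes the transactivator on which class II transcription depends. Its levels were 5.85, 5.38, 5.43 and 6.66 CPM in Ddx41+/+ and 5.33, 2.91 and 4.98 CPM in Ddx41+/-. The genotypes did not overlap, but replicate 6 was only just below the lowest Ddx41+/+ sample, and the distance was set mainly by replicate 7, at 49.9% of the Ddx41+/+ mean. That sample held 98 counts, for which an exact Poisson interval (95%, counting error only) runs from 79.6 to 119.4 counts, or 2.36 to 3.54 CPM. Means were 5.83 ± 0.590 and 4.41 ± 1.31 CPM, or 75.6% (exact permutation p = 0.0286, the smallest possible). The log2 fold change was -0.40 (SE 0.22, 95% interval -0.87 to 0.072, adjusted p = 0.560 by edgeR), and -0.18 without replicate 7 (adjusted p = 0.906 by edgeR).

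**Figure D2:**
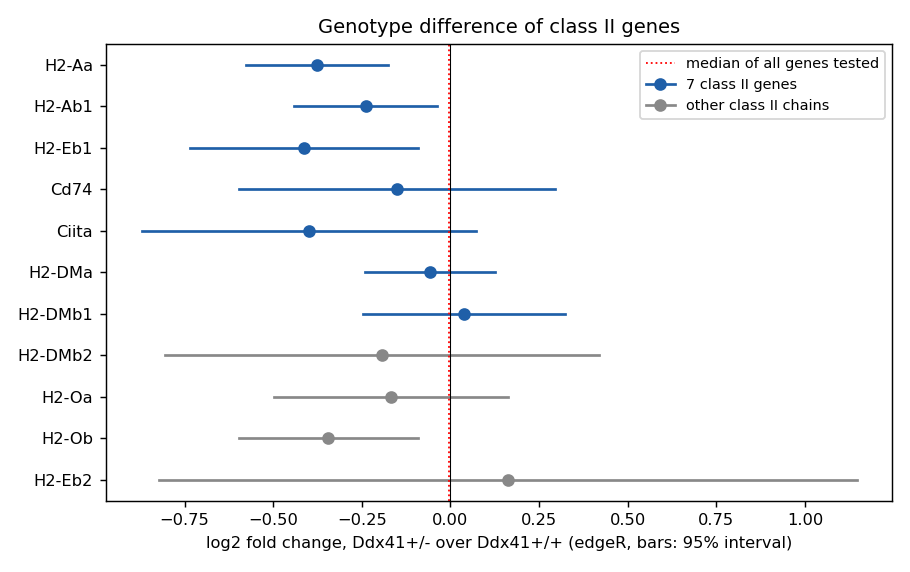
Log2 fold change of Ddx41+/- over Ddx41+/+ from edgeR (x axis, log2 units) for the 7 class II genes (blue) and 4 other class II chains (grey), with 95% intervals as bars; the dotted red line is the median of all genes tested, -0.0048. Intervals of H2-Aa, H2-Ab1, H2-Eb1 and H2-Ob lie below 0 before any adjustment for the number of genes tested, and no gene shown passed the BH-adjusted threshold.

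Replicate 7 of Ddx41+/- did not share the profile of replicates 6 and 8. Relative to the mean of those samples, it had 56.4% of Ciita, 72.4% of H2-Eb1 and 81.8% of H2-Aa, but 158.6% of Cd74, 146.7% of H2-DMb1, 128.2% of H2-Ab1 and 115.6% of H2-DMa. It was the lowest of all 7 samples for 3 of the 7 genes and the highest for 2, where it was lowest for 21.9% and highest for 19.3% of all genes tested. Low Ciita and high Cd74 therefore stood in the same library. In the edgeR fit without replicate 7, 7 of 7 genes had a log2 fold change below 0 (7015 of 13550 genes tested), with a median of -0.28. At an unadjusted p under 0.05, 3 were lower, here H2-Aa, H2-Ab1 and Cd74. Over all 13550 genes, 481 were lower and 509 higher at this level (7.31% in either direction). Of the 7 genes, 0 passed the adjusted threshold.

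**Figure D3:**
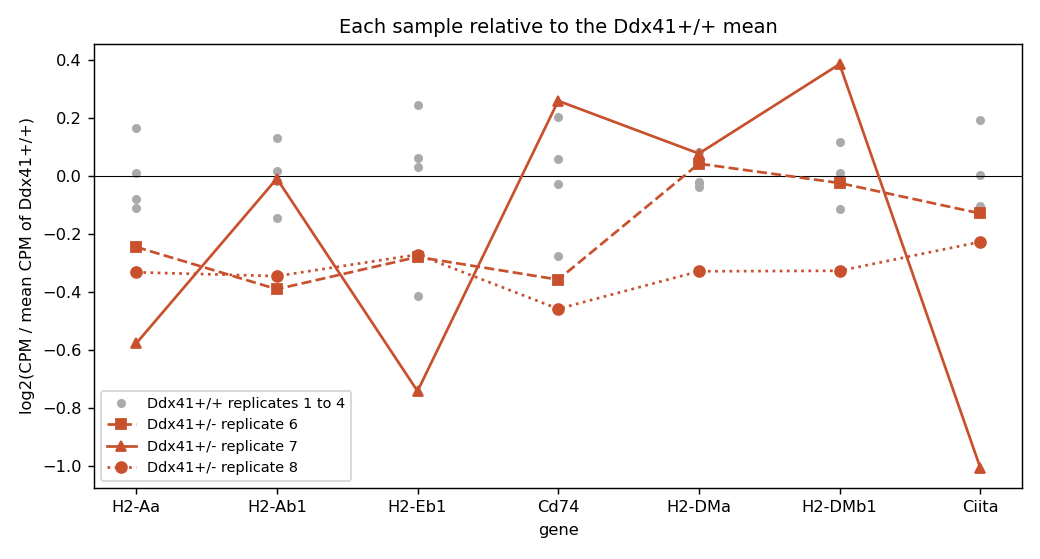
Log2 ratio of each sample to the Ddx41+/+ mean CPM (y axis, log2 units) for the 7 class II genes, with Ddx41+/+ samples as grey points and each Ddx41+/- replicate as a red line that only joins its own points. Replicates 6 and 8 are at or below 0 for all genes but H2-DMa in replicate 6, whereas replicate 7 ranges from 49.9% of the Ddx41+/+ mean for Ciita to 130.6% for H2-DMb1.

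Several transcripts of plasma cells and those of 2 regulators of plasma cell identity were high in the same library. Irf4, a factor needed for plasma cell formation, had 19.7 CPM in replicate 7 and 1.45 to 2.59 CPM in the other 6 samples. Prdm1, which represses Ciita in plasma cells, had 4.54 CPM there and 0.508 to 1.35 CPM elsewhere. A list of 8 plasma cell genes, added after the values of Irf4 and Prdm1 had been seen, summed to 672.1 CPM in replicate 7 and to 230.3 to 351.7 CPM in the other samples. The largest parts of the replicate 7 sum were Jchain (346.1 CPM) and Xbp1 (233.4 CPM). Mzb1, an endoplasmic reticulum protein of antibody-secreting cells, had 16.0 CPM against 1.89 to 3.65 CPM, and Cd79a, of the B lineage, had 18.5 CPM. Fkbp11, a secretory gene of the list, was not high in replicate 7. It had 17.4 CPM there, within the Ddx41+/+ range (12.7 to 18.9 CPM) and below replicates 6 and 8 (21.45 and 21.3 CPM). Jchain, Xbp1 and Fkbp11 had log2 fold changes of 0.93, 0.12 and 0.26 between the genotypes and did not pass the edgeR test. With all 7 samples, 8 of 8 genes of the list were above 0 (51.2% of all genes tested were below 0), with a median of 0.72. At an unadjusted p under 0.05, 2 were higher in Ddx41+/- (5.70% of all genes). Without replicate 7 the median of the list was -0.12, with 3 genes above and 5 below 0. Whether these transcripts have a part in the class II levels of replicate 7 was not tested.

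The proportions among class II transcripts were compared as ratios of counts, in which a shared change of all the genes would cancel. H2-Ab1 to H2-Aa was 1.41, 1.20, 1.26 and 1.44 in Ddx41+/+ and 1.20, 1.96 and 1.31 in Ddx41+/-. Cd74 to H2-Aa was 2.10, 2.04, 1.73 and 2.05 in Ddx41+/+ and 1.83, 3.54 and 1.82 in Ddx41+/-. Both ratios were highest in replicate 7 and otherwise overlapped between genotypes. H2-Eb1 to H2-Aa ran from 0.482 to 0.714 in Ddx41+/+ and from 0.542 to 0.633 in Ddx41+/-, H2-DMb1 to H2-DMa from 0.252 to 0.296 and from 0.257 to 0.332, and Ciita to H2-Aa from 0.0915 to 0.126 and from 0.0826 to 0.120. None of the 5 ratios passed an exact permutation test (raw p from 0.543 to 0.800, BH-adjusted p = 0.800 for each). Differences in mean log2 ratio lay between -0.068 and 0.21.

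Other genes of the pathway were read from the same fit. Beside the counts of each list, 51.2% of all genes tested were below 0 and 0.217% passed the edgeR test. At an unadjusted p under 0.05, 4.93% of all genes were lower and 5.70% higher in Ddx41+/-. Among the other class II chains, H2-Ob, the beta chain of the DO dimer that inhibits DM, averaged 24.6 ± 2.79 CPM (SD) over the Ddx41+/+ samples and 19.4 ± 2.50 CPM over the Ddx41+/- samples, with a log2 fold change of -0.35 (SE 0.12, unadjusted p of 0.0105, adjusted p = 0.314 by edgeR). Its partner H2-Oa had a log2 fold change of -0.17, and the DM beta chain copy H2-DMb2 one of -0.19. Of the 4 genes tested, 0 passed the test and 3 were below 0, with a median of -0.18, and 1 had an unadjusted p under 0.05.

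The summed level of genes of endosomal processing and surface turnover overlapped between genotypes, at 877.7 to 980.2 CPM in Ddx41+/+ and 868.8 to 968.7 CPM in Ddx41+/-. Of 10 genes tested, 0 passed, 8 were above and 2 below 0, and the median log2 fold change was 0.061, with 1 gene at an unadjusted p under 0.05. That gene was Sppl2a, an intramembrane protease that clears the last fragment of the invariant chain, at 76.0 ± 0.852 CPM in Ddx41+/+ and 87.2 ± 6.74 CPM in Ddx41+/- (log2 fold change 0.20, adjusted p = 0.314 by edgeR). The endosomal proteases Ctsd and Ctsb, the most abundant of the list, had log2 fold changes of -0.097 and 0.022.

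Regulators of class II transcription and of its induction by interferon-gamma had a median log2 fold change of 0.00059 over 17 genes, with 0 calls by edgeR, 8 values below and 9 above 0, and 1 at an unadjusted p under 0.05. The abundant members Irf8, a factor of the dendritic and monocyte lineages, Ifngr1, the interferon-gamma receptor chain, and Jak1, its kinase, had log2 fold changes of 0.060, 0.15 and 0.017. The RFX subunit Rfx5, which binds the X box, had 51.5 CPM in Ddx41+/+ and 51.6 CPM in Ddx41+/-. Rfxap, another RFX subunit, was lower without overlap (log2 fold change -0.24, adjusted p = 0.51 by edgeR), and Rfxank had -0.0031. The NF-Y subunit Nfya was also lower without overlap (log2 fold change -0.085, adjusted p = 0.64 by edgeR), and Nfyb and Nfyc had 0.091 and -0.036. Without overlap, 2 of the 17 genes were lower (5.21% of all genes) and 1 higher (4.85%). Creb1, another factor of these promoters, had 98.1 ± 4.09 CPM in Ddx41+/+ and 119.1 ± 7.27 CPM in Ddx41+/- without overlap (log2 fold change 0.28, adjusted p = 0.108 by edgeR and 0.0151 by DESeq2). The RFX and NF-Y subunits and Creb1 were named after their values were seen.

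Genes known to respond to interferon-gamma had a median log2 fold change of -0.15 over 19 genes, with 16 below and 3 above 0 (51.2% of all genes tested were below 0). Of these, 0 passed the edgeR test, 6 were lower at an unadjusted p under 0.05 (4.93% of all genes) and 0 higher (5.70%), and 5 were lower without overlap (5.21%). In the fit without replicate 7 the median was -0.11, with 15 below 0 (7015 of 13550 genes tested). At an unadjusted p under 0.05, 5 were then lower (481 of 13550). Tap2 and Tap1, which import peptides for class I, had log2 fold changes of -0.17 and -0.11, and the immunoproteasome subunit Psmb8 one of -0.041. Iigp1, an interferon-inducible GTPase named after its values were seen, had 11.9 ± 1.66 CPM in Ddx41+/+ and 8.06 ± 0.797 CPM in Ddx41+/- (log2 fold change -0.56, adjusted p = 0.195 by edgeR and 0.0495 by DESeq2).

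Of 6 genes listed for costimulation, which include inhibitory ligands such as Cd274, 0 passed the test or an unadjusted p of 0.05. Cd274, Icosl and Cd86 had 22.8, 11.4 and 2.54 CPM in Ddx41+/+ and 20.6, 10.5 and 2.06 CPM in Ddx41+/-. Over these 5 lists together, 0 of 56 genes tested passed the edgeR test, 7 were lower and 2 higher at an unadjusted p under 0.05, and the median log2 fold change was -0.038. DESeq2 called 2, Creb1 and Iigp1.

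Neighbouring genes were counted across the class II region, from H2-Oa to H2-Ea-ps (chromosome 17, 34092340 to 34344645). Of its 15 genes, 14 were tested, 5 of them among the 7 described above. The other 9 had log2 fold changes from -0.35 to 0.16 with a median of -0.15, and 8 were below 0 (51.2% of all genes tested). None of the 9 passed the edgeR test (0.217% of all genes). At an unadjusted p under 0.05 there were 3, each lower in Ddx41+/- (4.93% of all genes). All of the 9 but Brd2, these 3 included, were already counted in the lists above, so these counts repeat earlier values.

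Since class II is abundant in mature antigen-presenting cells, genes that mark other cell types were summed per sample beside the class II values. Over all genes tested, 51.2% were below 0 and 0.217% passed the edgeR test. At an unadjusted p under 0.05, 4.93% of all genes were lower and 5.70% higher in Ddx41+/-. Conventional dendritic cell genes (9 genes, 8 tested) summed to 23.6 to 27.7 CPM in Ddx41+/+ and 19.8 to 24.5 CPM in Ddx41+/-. Of these, 6 were below 0 and 2 above with a median log2 fold change of -0.18, 1 had an unadjusted p under 0.05 and 0 passed. That gene, Xcr1, had 1.76 to 3.57 CPM in Ddx41+/+ and 1.01 to 1.45 CPM in Ddx41+/-, without overlap. Its log2 fold change was -1.27 (adjusted p = 0.154 by edgeR), and -1.24 without replicate 7. The most abundant, the lectin receptors Clec10a and Clec9a and the integrin Itgax, overlapped between genotypes, with log2 fold changes of -0.073, -0.28 and -0.063. Without replicate 7 the Ddx41+/- sums were 20.9 and 24.5 CPM, and 5 of 8 genes were below 0 with a median of -0.12. Plasmacytoid dendritic cell genes (6 genes, 5 tested) summed to 7.18 to 9.50 CPM and 8.39 to 10.3 CPM, with 0 calls. Their most abundant genes, Lag3, Cox6a2 and Siglech, had log2 fold changes of 0.37, -0.24 and -0.24. Of the 5 tested, 4 were below 0 and 1 above with a median of -0.24, and 0 had an unadjusted p under 0.05. Without replicate 7, 2 were below 0 and 3 above with a median of 0.15.

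B-lineage genes (15 genes, 14 tested) summed to 50.3 to 71.8 CPM in Ddx41+/+ and 64.7 to 92.7 CPM in Ddx41+/-, with 13 of 14 above 0, a median log2 fold change of 0.64 and 0 calls, and 4 genes at an unadjusted p under 0.05. Without replicate 7 the Ddx41+/- sums were 64.7 and 91.3 CPM, 10 of 14 were above 0 and the median was 0.44. Cd79b and Cd79a, the signalling chains of the B cell receptor, had log2 fold changes of 0.014 and 1.00, and Igll1, a surrogate light chain gene, 0.19. Monocyte and macrophage genes (12 genes) summed to 293.6 to 333.8 CPM and 307.2 to 405.8 CPM, with 9 above 0, a median of 0.19 and 0 calls (without replicate 7, sums of 307.2 and 358.0 CPM, 8 above 0 and a median of 0.13). Csf1r, Ccr2 and Vcam1, the most abundant, had log2 fold changes of 0.17, 0.31 and 0.12. Mature neutrophil genes (10 genes) summed to 740.8 to 1255 CPM and 1334 to 2283 CPM without overlap, with 9 above 0, a median log2 fold change of 0.84 and 1 call, Mmp9, a granule protease, which rose from 5.62 ± 1.56 to 16.7 ± 4.14 CPM (log2 fold change 1.57, adjusted p = 0.00677 by edgeR, and 0.0323 without replicate 7). The abundant granule genes S100a9, Ngp and S100a8 had log2 fold changes of 0.83, 0.84 and 0.66 and did not pass. At an unadjusted p under 0.05, 9 of the 10 neutrophil genes were higher in Ddx41+/- (5.70% of all genes), and 7 were higher without overlap (4.85%). In the fit without replicate 7, 7 were higher at an unadjusted p under 0.05 (509 of 13550 genes).

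T, NK and innate lymphoid genes (10 genes) summed to 235.2 to 290.1 CPM in Ddx41+/+ and 263.9 to 297.4 CPM in Ddx41+/-, nearly all of it Nkg7 (log2 fold change 0.064), with 0 of 6 tested called. Il1rl1 and Gata3 had log2 fold changes of -0.051 and -0.38, and Cd3e, Cd3d, Cd3g and Ncr1 were too low to be tested. No gene of these lists was at 0 in every sample. The part of any of these cell types in the class II levels was not tested.

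**Figure D4:**
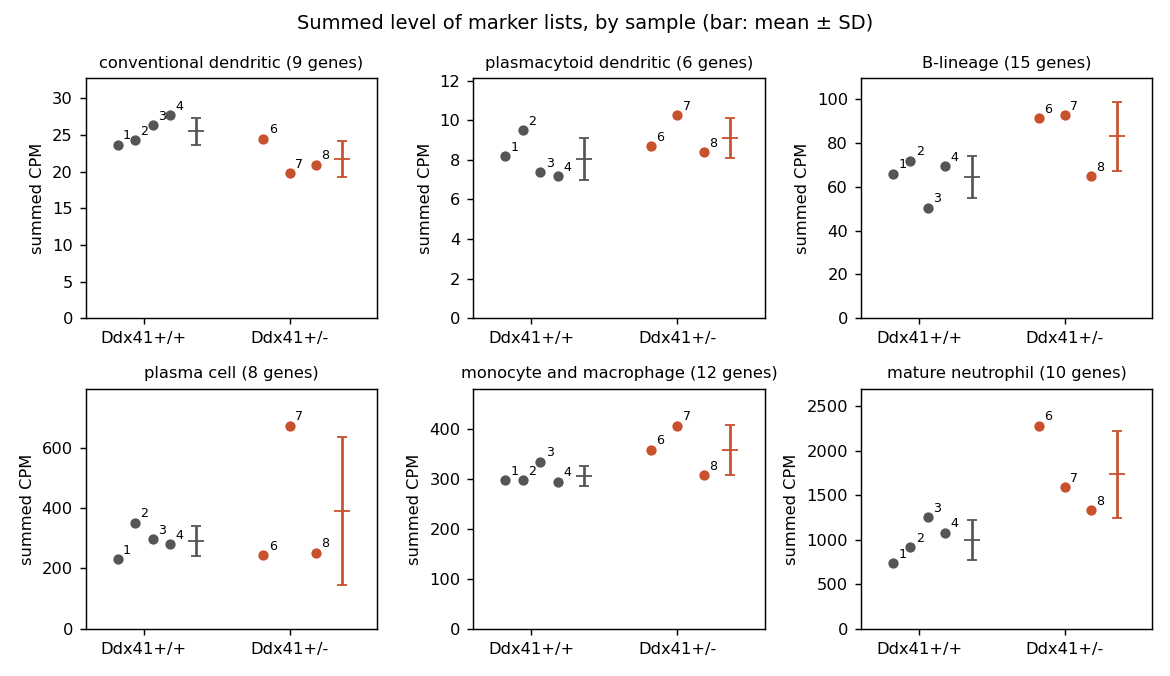
Summed CPM of marker genes of 6 other cell types (linear axes from 0) in each LSK sample, numbered by replicate, with the mean ± SD of each genotype as bars (n = 4 Ddx41+/+ in grey, n = 3 Ddx41+/- in red). Neutrophil sums do not overlap between genotypes, and the plasma cell sum of Ddx41+/- replicate 7 (672.1 CPM) is above all other samples.

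Genes whose levels followed the class II genes most closely were ranked by Pearson r between their log2 CPM and the mean centred log2 CPM of H2-Aa, H2-Ab1, H2-Eb1 and Cd74 over the 7 samples, among 9809 genes of at least 5 CPM. The 8 leading genes were Mocs3 (r = 0.97), Maged1 (0.96), Lsg1 (0.96), Mettl21a (0.95), Urm1 (0.94), Akt2 (0.94), Zfp512 (0.94) and Siah1a (0.94). The samples share the genotype contrast and the sequencing depth, high values of r are reached by some genes when so many are ranked over 7 samples, and none of the 8 passed the edgeR test for genotype.

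**Figure D5:**
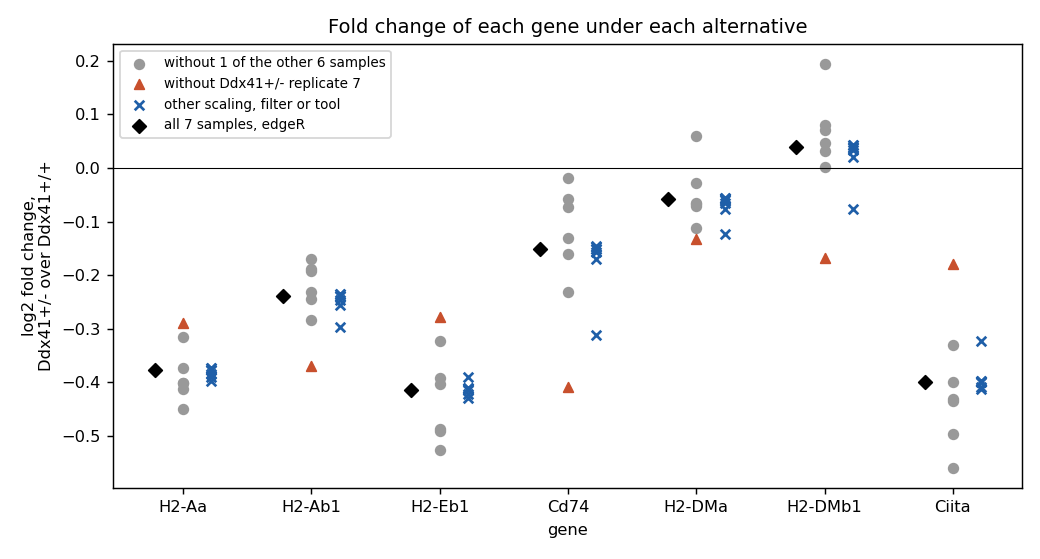
Log2 fold change of Ddx41+/- over Ddx41+/+ (y axis, log2 units) of each class II gene with all 7 samples in edgeR (black diamonds), with other scaling, filters or tools (blue crosses) and with 1 sample left out (grey circles, red triangles for Ddx41+/- replicate 7). All values of H2-Aa, H2-Ab1, H2-Eb1, Cd74 and Ciita are below 0, those of H2-DMa and H2-DMb1 fall on both sides, and leaving out replicate 7 takes Cd74 to -0.41 and Ciita to -0.18.

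Counts of 3 of the 7 genes could hold reads of a neighbour or copy. Of all 75-base windows of the annotated transcripts, 15.8% in H2-DMb1 also occurred in H2-DMb2, 7.46% in H2-DMa occurred in Brd2 and 0.765% in Ciita occurred in Dexi, against 0 in H2-Aa, H2-Ab1, H2-Eb1 and Cd74. Brd2 and Dexi lie on the opposite strand and overlap exons of H2-DMa and Ciita, and the use of strand in the counting is not given in the sources used here. Their own levels were 369.1 and 360.2 CPM for Brd2 and 11.4 and 9.95 CPM for Dexi in Ddx41+/+ and Ddx41+/-, and neither passed the edgeR test.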

How the data were processed

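RNA-seq was performed on sorted LSK cells of 4 Ddx41+/+ and 3 Ddx41+/- recipients, grouped by the genotype in the labels. Raw counts were deposited by the authors for each gene symbol. The submitters' processing notes name FastQC 0.11.7, HISAT2 2.0.5, featureCounts 1.5.2 and the build mm10. Library kits differ between the labels (stranded) and the study's methods, and the handling of strand and of shared reads is not given in the sources used here. A library numbered 5 was removed before deposit, per the name of the counts, and was not analysed here. All 7 columns of sample values were used, leaving 0 unused, and no row lacked a gene name.

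Genotypes were compared in R 4.3.3 by quasi-likelihood testing with edgeR 4.0.16 (robust, TMM scaling, filterByExpr), with BH adjustment over all 13340 genes tested and a threshold of 0.05. Biological variation was 12.9%. SE was taken from the log2 fold change and F, and 95% intervals used the test's total degrees of freedom. Single values and ratios were compared by exact two-sided permutation over 35 splits, in Python 3.11.15. Alternatives were other scalings, no filter, DESeq2 1.42.0, limma-voom (limma 3.58.1), a non-robust fit and leaving out each sample. Scripts were tested on simulated data. P-values measure the spread between recipient mice. The number of marrow donors is not given in the sources used here, so recipients of 1 genotype may share a donor. Depth (32234499 to 43751290 counts) sets the counting error, which is all that Poisson intervals and floors cover. Positions are from GENCODE M21 (GRCm38), to which 23376 symbols matched.

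The members and lists were chosen with earlier results of these data known. Genes named were Ddx41, the 7 members, from each list the genes that passed and the 3 most abundant, and the 8 most like the members by r (symbols of predicted genes left out). Others (Irf4, Prdm1, Mzb1, Rfx5, Rfxap, Rfxank, Nfya, Nfyb, Nfyc, Creb1, Iigp1, Xcr1) were named after their values were seen.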

Additional observations from a re-analysis of the deposited data

Results flagged for a closer look

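Within the 4 Ddx41+/+ samples, 8 of 75 values checked had a highest or lowest sample far from the others, measured as its gap to the nearest sample over the range of the group. Chance flags about 1 in 20 groups, or 3.75 of 75, and the 3 Ddx41+/- samples are too few for this check. Among class II transcripts, H2-DMa was high in replicate 2 (130.1 CPM against 121.2 CPM in the next sample, gap ratio 0.847), the ratio of Cd74 to H2-Aa was low in replicate 3 (1.73 against 2.04, gap ratio 0.839), H2-Oa was low in replicate 4 (8.56 against 11.0 CPM, gap ratio 0.864) and H2-DMb2 was high in replicate 3 (6.35 against 3.17 CPM, gap ratio 0.915). Among other genes, Psmb8 was high in replicate 2 (407.0 against 366.1 CPM, gap ratio 0.890), Lag3 was high in replicate 2 (5.87 against 4.69 CPM, gap ratio 0.900) and Maged1 was low in replicate 3 (14.3 against 19.1 CPM, gap ratio 0.864). The monocyte and macrophage sum was high in replicate 3 (333.8 against 297.1 CPM, gap ratio 0.914). The cause of these values was not tested.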

How the results depend on the processing

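Over 14 alternative fits, H2-Aa, H2-Ab1, H2-Eb1, Cd74 and Ciita kept log2 fold changes below 0, with Cd74 between -0.41 and -0.018. Of the 7 class II genes, 1 (H2-Aa) was called with DESeq2 or without the filter and 0 in the other fits, leave-one-out fits included (0 to 0). Pathway genes called were 2 with DESeq2 and 0 otherwise (0 to 0 with a sample left out). Over all genes, 29 calls became 15 with library totals only, 91 without the filter, 164 with DESeq2, 14 with non-robust dispersion and 7 to 41 with a sample left out (7 without Ddx41+/+ replicate 2, 9 without Ddx41+/- replicate 8). H2-DMa changed sign without Ddx41+/- replicate 8 (log2 fold change 0.060, 5.23 CPM; -0.13 to 0.060 with a sample left out), and H2-DMb1 with limma-voom (-0.077) and without Ddx41+/- replicate 7 (-0.17, -3.63 CPM; -0.17 to 0.19 with a sample left out). With a sample left out, log2 differences of ratios ran from -0.080 to 0.28 (H2-Ab1 to H2-Aa), -0.14 to 0.052 (H2-Eb1 to H2-Aa, reversed at 0.022, 0.052 and 0.028 without replicates 1, 4 and 7), -0.11 to 0.37 (Cd74 to H2-Aa), -0.031 to 0.16 (H2-DMb1 to H2-DMa) and -0.16 to 0.11 (Ciita to H2-Aa), with a change of sign in each without replicate 7. Differences in CPM then ran from -14.1 to -9.49 for H2-Aa, -1.89 to -0.674 for Ciita, -10.7 to 5.23 for H2-DMa and -3.63 to 4.77 for H2-DMb1. Those of H2-Aa and Ciita could no longer pass the exact test, since with 6 samples the smallest p is 0.1 or 0.0667. Without Ddx41+/- replicate 7 the exact permutation p was 0.133 for both, above that smallest value. Ddx41 passed in all 14 fits (edgeR, DESeq2 or limma-voom, adjusted p at most 0.0324). No paired analysis was possible because the genotypes share no replicate numbers. The cause of these changes was not tested, and fewer samples also limit the exact test. Ciita, at 98 to 242 counts per sample, had the largest counting error of the 7 genes.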
